A study of Mus musculus with 12 samples.

Results

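Glutathione is a small peptide of glutamate, cysteine and glycine that cells hold as their main thiol antioxidant. Its supply is limited mostly by cysteine, which enters many cells as cystine through a transporter made of a light chain (Slc7a11) and a heavy chain (Slc3a2). The peptide is built by glutamate-cysteine ligase (Gclc and Gclm) and glutathione synthetase (Gss), is spent by glutathione peroxidases such as Gpx1 and Gpx4, is regenerated by glutathione reductase (Gsr) and is broken down inside the cell by Chac1. Loss of this system leads to ferroptosis, an iron-dependent death by lipid peroxidation, which Gpx4 and the ubiquinone reductase Aifm2 (also called FSP1) hold back along separate routes. In brain cultures astrocytes are known to take up much of the cystine and to supply neurons with precursors of glutathione.

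These 10 genes were followed in mouse cortical neuronal cultures that carried a lentivirus overexpressing Ifng, the gene of the cytokine interferon-gamma, against Control cultures. They were found by symbol among the 43629 gene identifiers of the count table, all 10 had a row, and all 10 had enough counts to be tested. Each group, IFNG and Control, had 6 libraries of poly(A) RNA. The labels give transduction at 7 days in vitro and harvest after 10 further days, in the same words for both groups, so which construct the Control cultures received, if any, cannot be read from them. No genotype, strain, age of the animals or promoter of the construct is given, and nothing says that the libraries of a group came from separate cultures, so p-values cover the spread between these libraries alone, which may be technical.

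Libraries held from 13875435 to 34239380 counts. IFNG 5 stood apart over all genes: its counts differed from those of the other IFNG libraries by a chi-square of 49.3 to 81.7 per gene, against 14.2 to 45.8 among the other 5, a measure that also grows with depth. It had the lowest summed neuron markers (5558 CPM). Results for Slc3a2, Gclm, Gpx1, Gpx4 and Aifm2 are also given without IFNG 5, and other values include it unless stated. The cultures responded to the cytokine in every IFNG library. In CPM, counts scaled to a common library total, Ifng stood at 11.1 ± 4.41 in IFNG and 0.0686 ± 0.0778 in Control, and the interferon-induced transcription factor gene Irf1 at 213 ± 19.9 against 3.40 ± 0.572 CPM (SD, n = 6 each). Over 15241 tested genes the background of calls was 14.3% higher and 9.79% lower in IFNG, 24.1% in either direction (adjusted p under 0.05, edgeR's quasi-likelihood test). IFNG libraries held more RNA of astrocyte markers: 15 of 16 tested markers of a list of 18 rose, and their summed level was 5306 to 8534 CPM in IFNG against 3084 to 3435 CPM in Control. Of 20 neuron markers 9 fell and 0 rose (0 also at an unadjusted p under 0.05, in DESeq2 and in limma-voom), with sums of 5558 to 7160 against 7616 to 8348 CPM. In bulk RNA, fewer cells of a type and less RNA per cell cannot be told apart, and the part of this shift in the results below was not tested. Microglia markers were low: 5 of 20 listed markers could be tested, Tmem119 and Ctss had 0 counts in all Control libraries, and Csf1r had 0.580 ± 0.537 CPM in Control and 0.464 ± 0.210 in IFNG (SD, n = 6 each). Of the 5 tested, 2 rose and 0 fell. The summed level of the list was 34.16 to 42.4 CPM in Control and 45.6 to 60.4 CPM in IFNG libraries.

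Of the 10 genes, 4 rose in IFNG cultures, 1 fell and 5 did not pass the test, so 5 were called where the background is 24.1%, with 14.3% higher and 9.79% lower. Those that rose were Gpx1, Slc7a11, Aifm2 and Gclc, by 3.62-fold, 2.60-fold, 2.57-fold and 1.75-fold. Gss was the gene that fell, and Slc3a2, Gclm, Gsr, Gpx4 and Chac1 did not pass. Without IFNG 5, 5 of the 10 rose and 1 fell. The 10 log2 fold changes had a median of 0.25, against -0.02 over all tested genes. In 4 of the 10 genes every IFNG library lay above every Control library, which held for 8.75% of all tested genes. The reverse, every IFNG library below every Control library, held for 0 of the 10 and for 4.09% of all tested genes. Scaled to totals without the genes called higher, which moved the median over all genes from -0.02 to 0.10 on the log2 scale, 5 of the 10 rose and 0 fell, and calls over all genes went from 2184 higher and 1492 lower to 2954 and 750. On library totals with no composition factor the 10 genes kept 4 higher and 1 lower, while all genes gave 1962 and 1859.

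**Figure D1:**
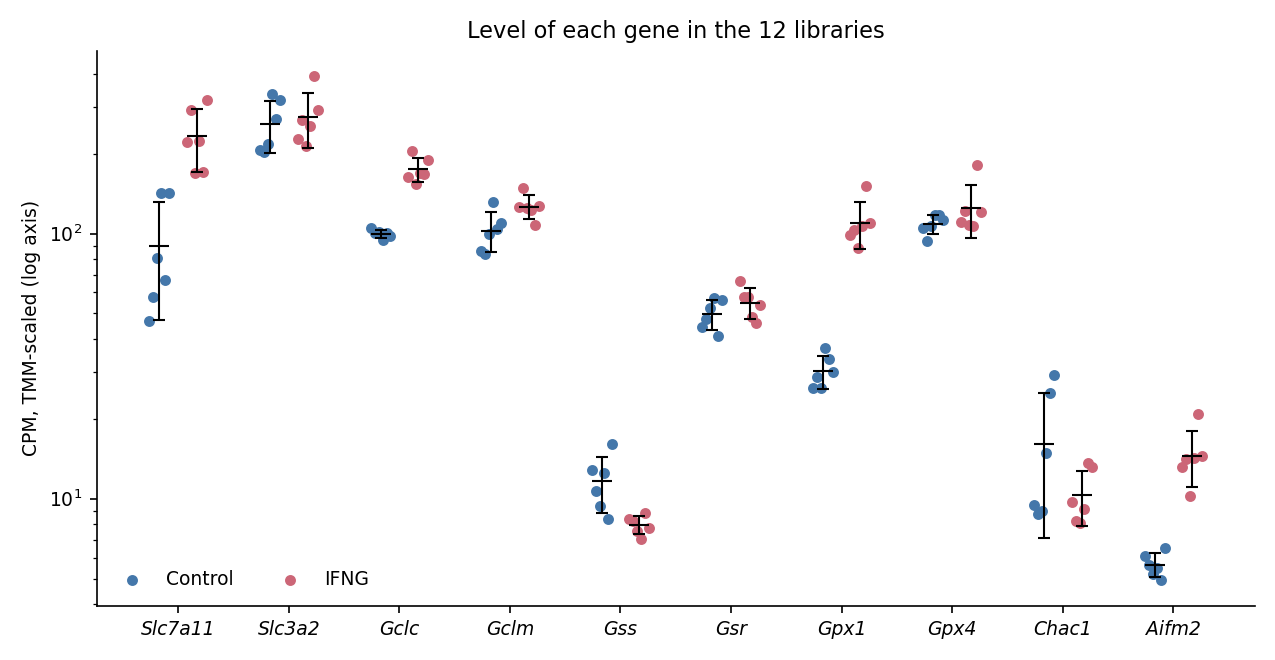
Level of each gene in the 6 Control (blue) and 6 IFNG (red) libraries, in CPM scaled by TMM on a log axis. Points are libraries 1 to 6 from left to right, and black bars are the mean ± SD. The 2 groups do not overlap for Slc7a11, Gclc, Gpx1 and Aifm2.

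Promoter windows show where the members differ in sequence, and 3 are printed because they were the only ones among the members to hold a searched motif. RefSeq windows on build GRCm38.p6, from 250 bases before to 50 bases after a start site, matched 8 of the 10 genes in 11 windows. No window was matched for Gclc or Gsr. Each was searched on both strands for the antioxidant response element core TGACNNNGC bound by NRF2, the ATF4-type element TGATGNAA, the gamma-activated sequence TTCNNNGAA, and the interferon-stimulated response element. The printed stretches run 5′ to 3′ on the strand of the gene, from 250 to 21 bases before the start site, with the matches in capitals. They are Slc7a11 (chr3:50443634-50443863, minus strand), Chac1 (chr2:119350992-119351221, plus strand) and Gclm (chr3:122245307-122245536, plus strand).
Slc7a11: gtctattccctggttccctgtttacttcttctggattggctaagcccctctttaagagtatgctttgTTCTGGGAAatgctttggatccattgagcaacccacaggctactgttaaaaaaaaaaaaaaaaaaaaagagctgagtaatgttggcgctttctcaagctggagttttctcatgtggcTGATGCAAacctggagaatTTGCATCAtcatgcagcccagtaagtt
Chac1: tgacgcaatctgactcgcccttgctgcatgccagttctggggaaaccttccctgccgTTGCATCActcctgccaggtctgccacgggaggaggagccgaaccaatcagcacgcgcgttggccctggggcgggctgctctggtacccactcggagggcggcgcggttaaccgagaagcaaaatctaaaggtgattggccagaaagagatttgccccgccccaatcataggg
Gclm: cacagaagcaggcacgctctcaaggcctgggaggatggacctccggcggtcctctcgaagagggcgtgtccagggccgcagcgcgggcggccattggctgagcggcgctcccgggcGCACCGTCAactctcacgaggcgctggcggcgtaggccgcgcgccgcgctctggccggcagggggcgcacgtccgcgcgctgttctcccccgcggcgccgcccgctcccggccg

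The Slc7a11 window held the ATF4-type element on both strands, as TGATGCAA starting 66 bases and as TTGCATCA starting 47 bases before the start site, with no overlap between them. It also held the only gamma-activated sequence among the members, TTCTGGGAA, 183 bases before the start site. Chac1 held 1 ATF4-type element, TTGCATCA on the other strand, 193 bases before its start site. Gclm held 1 antioxidant response element core, GCACCGTCA on the other strand, 134 bases before its start site. Over all 32851 promoter windows of the same length, 3.97% held the ATF4-type element, 8.30% the gamma-activated sequence, 12.4% the antioxidant response element core and 3.44% the interferon-stimulated response element, which no member window held. A match describes letters in this window and not a bound site.

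Slc7a11 encodes the light chain that carries cystine in and glutamate out (ENSMUSG00000027737, GRCm38 chromosome 3, 49892526 to 50443614, minus strand). Its level ran from 46.9 to 143 CPM in Control libraries, with a median of 73.9, and from 169 to 320 CPM in IFNG libraries, with a median of 222. All 6 IFNG libraries were above the highest Control library. The log2 fold change was 1.38 ± 0.24 (SE, adjusted p = 0.000245), and an exact two-sided permutation test reached p = 0.00216, the lowest value possible with 6 libraries against 6. The Control libraries were themselves spread: Control 4 and Control 6 stood at 143 and 142 CPM, Control 1 at 46.9 CPM. Left out in turn, no library ended the call (adjusted p from 7.14e-05 to 0.000974). Slc7a11 is also known as abundant in cultured astrocytes, and the astrocyte marker list rose in the IFNG libraries. The summed astrocyte markers stood at 3084 and 3168 CPM in Control 4 and Control 6, and at 3435 CPM in Control 1. A link between Slc7a11 and these markers was not tested.

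Slc3a2 encodes the heavy chain that Slc7a11 and several other light chains share (ENSMUSG00000010095, chromosome 19, 8706882 to 8723369, minus strand). Its level was 204 to 336 CPM in Control and 213 to 393 CPM in IFNG libraries, with medians of 245 and 262. The groups overlapped over nearly their whole range, with 1 IFNG library above the highest Control library. Its log2 fold change was 0.09 ± 0.15 (adjusted p = 0.733), and without IFNG 5, its highest library, it was -0.03. Slc3a2 stood at 204 to 219 CPM in Control 1, Control 2 and Control 3, and at 271 to 336 CPM in Control 4, Control 5 and Control 6. Gclm, Gpx1, Gpx4 and Chac1 were also higher in each of the last 3 than in each of the first 3. The other members did not split this way. Per length of exon, the ratio of Slc7a11 to Slc3a2 averaged 0.0843 ± 0.0238 in Control and 0.222 ± 0.0624 in IFNG (SD, n = 6 each), so the heavy chain transcript was the more abundant in both groups. The ranges of that ratio, 0.0573 to 0.113 and 0.110 to 0.277, overlapped at their ends, with medians of 0.0829 and 0.234. The lowest IFNG value was that of IFNG 5, where Slc7a11 stood at 171 CPM and Slc3a2 at 393 CPM. The range without IFNG 5 is not given here.

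Of 5 other light chains that pair with Slc3a2, all tested, 0 rose (1 at an unadjusted p under 0.05, 0 in DESeq2, 1 in limma-voom) and 1 fell, and the median was -0.25 on the log2 scale. Among all tested genes 14.3% were higher and 9.79% lower. The list held 1 more light chain, which pairs with another heavy chain and was too low to be tested. Slc7a8, a carrier of neutral amino acids, fell by 0.25 on the log2 scale (adjusted p = 0.0354). Leaving out Control 1, 5 or 6, or IFNG 1, 2, 3 or 6, ended that call (adjusted p = 0.0544 to 0.104), as did totals without the genes called higher. The most abundant, Slc7a5, which imports leucine and other large amino acids, did not pass, with 378 ± 80.9 CPM in Control and 310 ± 51.7 in IFNG (SD, n = 6 each; adjusted p = 0.132).

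The subunits of glutamate-cysteine ligase, which makes the first and rate-limiting peptide bond, differed in size of change. Gclc, the catalytic subunit (ENSMUSG00000032350, chromosome 9, 77754535 to 77794485, plus strand), lay between 94.4 and 105 CPM in Control and between 155 and 205 CPM in IFNG libraries, with medians of 100.4 and 168.6. Relative to its mean it was the most even of the 10 genes among Control libraries, with an SD of 3.60 CPM (n = 6). Its log2 fold change was 0.81 ± 0.084 (adjusted p = 3.46e-07; exact permutation p = 0.00216), and no library when left out moved it outside the range of 0.76 to 0.84.

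Gclm, the modifier subunit that raises the activity of the ligase (ENSMUSG00000028124, chromosome 3, 122245557 to 122270732, plus strand), ran from 83.8 to 132 CPM in Control and from 108 to 149 CPM in IFNG libraries. Only IFNG 2 lay above the highest Control library, Control 4. Its log2 fold change of 0.30 ± 0.11 missed the threshold narrowly (adjusted p = 0.0519). With all libraries kept it passed in DESeq2 and limma-voom (adjusted p = 0.0456 and 0.0417), with no filter and with a filter of 1 CPM (0.0375 and 0.0436), and on totals without the genes called higher (0.00677). It also passed without Control 4, IFNG 5 or Control 6 (adjusted p = 0.00739, 0.0183 and 0.0493), and without Control 4 and IFNG 5 together it was 0.44 (adjusted p = 0.00125). Per length of exon the ratio of Gclc to Gclm ran from 1.196 to 2.04 in Control and from 2.07 to 2.61 in IFNG libraries, ranges that did not overlap. A short stretch of Gclm exons, 4.71%, overlaps the antisense transcript Gm17494, which stood at 1.14 CPM in Control libraries.

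Gss, which adds glycine to complete the peptide (ENSMUSG00000027610, chromosome 2, 155563181 to 155592810, minus strand), was the member that fell. It was low in all libraries, at 8.36 to 16.04 CPM in Control and 7.05 to 8.81 CPM in IFNG, from 96 to 331 counts a library. In 5 of 6 IFNG libraries it lay below the lowest Control library, Control 5. The log2 fold change was -0.54 ± 0.16 (adjusted p = 0.0176; exact permutation p = 0.00433). Without Control 6, the highest library, it was -0.42 and did not pass (adjusted p = 0.0682). Of its exon bases, 6.68% overlap Acss2 on the opposite strand, a more abundant gene that stood at 30.0 ± 5.54 CPM in Control libraries (SD, n = 6; adjusted p = 0.904). As the strand setting of the counts is not given, reads of that stretch cannot be assigned to either gene.

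Gsr, which returns oxidised glutathione to its reduced form with NADPH (ENSMUSG00000031584, chromosome 8, 33652523 to 33698163, plus strand), did not pass. It lay between 41.1 and 57.2 CPM in Control and between 46.0 and 66.2 CPM in IFNG libraries, with medians of 49.98 and 55.7. The groups overlapped, with 3 IFNG libraries above the highest Control library (log2 fold change 0.14 ± 0.11, adjusted p = 0.380).

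**Figure D2:**
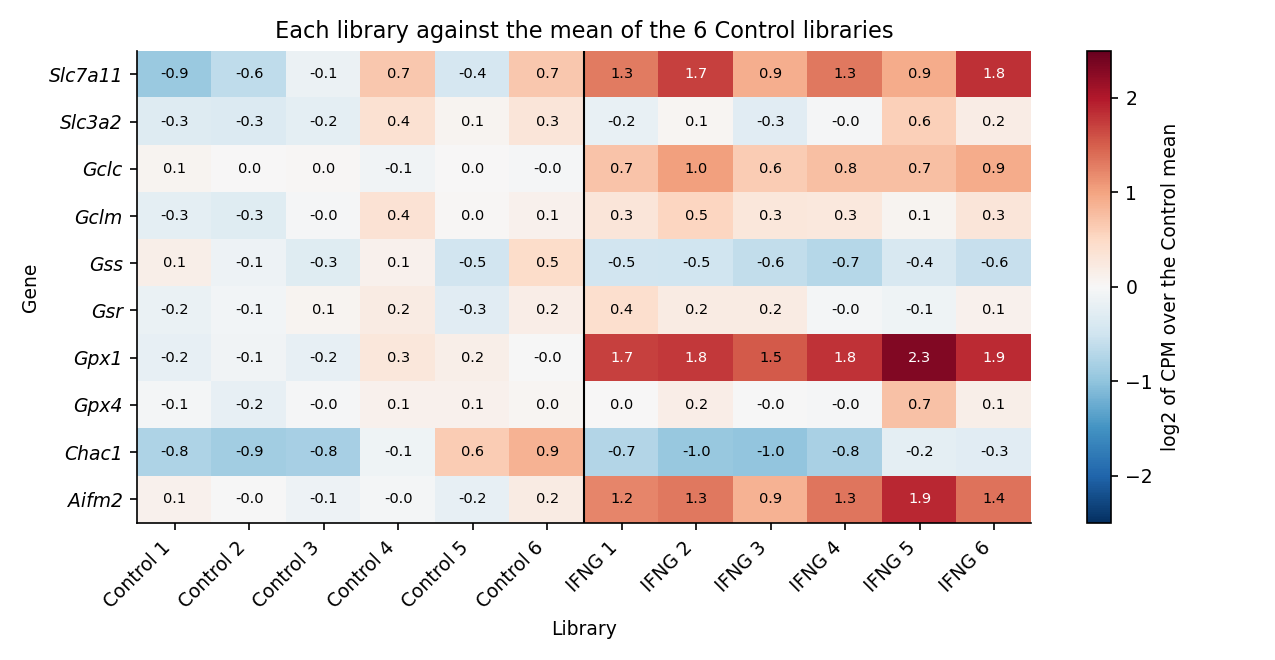
Log2 of the CPM of each gene (rows) in each library (columns) over the mean CPM of the 6 Control libraries, with the value printed in each cell. Slc7a11, Gclc, Gpx1, Aifm2 and Gclm are above 0 in all 6 IFNG libraries and Gss and Chac1 are below 0 in all 6, while Slc7a11 and Chac1 also vary widely among the Control libraries.

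The glutathione peroxidases diverged. Gpx1, the cytosolic enzyme that reduces hydrogen peroxide (ENSMUSG00000063856, chromosome 9, 108338903 to 108340343, plus strand), had the largest change of the 10 genes. It ran from 26.1 to 37.1 CPM in Control and from 87.9 to 152 CPM in IFNG libraries, with medians of 29.3 and 105. The lowest IFNG library was still above the highest Control library. The log2 fold change was 1.86 ± 0.13 (adjusted p = 5.97e-10; exact permutation p = 0.00216), and 1.75 without IFNG 5, which was the highest.

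Gpx4, the selenoenzyme that reduces lipid peroxides in membranes and is the central brake on ferroptosis (ENSMUSG00000075706, chromosome 10, 80047166 to 80056439, plus strand), did not pass. It lay between 94.2 and 118 CPM in Control and between 107 and 181 CPM in IFNG libraries. IFNG 5 alone stood at 181 CPM, and the other IFNG libraries did not exceed 122 CPM. Its log2 fold change of 0.20 ± 0.12 (adjusted p = 0.253) was 0.07 ± 0.080 without IFNG 5. Per length of exon, the ratio of Gpx1 to Gpx4 went from 0.332 ± 0.0343 in Control to 1.06 ± 0.0806 in IFNG libraries (SD, n = 6 each), and the ranges, 0.292 to 0.376 and 0.976 to 1.196, did not overlap.

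Of 3 tested among the 6 other listed peroxidases, 1 rose and 0 fell (0 also at an unadjusted p under 0.05, in DESeq2 and in limma-voom). The shares were 33.3% and 0%, against 14.3% and 9.79% of all tested genes. Gpx8, a peroxidase of the endoplasmic reticulum, rose by 1.42 ± 0.20 on the log2 scale, from 8.69 ± 1.18 to 23.2 ± 9.04 CPM (SD, n = 6 each; adjusted p = 1.55e-05). Gpx3, a secreted form, was near the limit of detection at 0.997 ± 0.442 and 1.47 ± 0.930 CPM (adjusted p = 0.397). Gpx1 and Gpx4 both need the residue selenocysteine. The list for its synthesis and insertion, which also held genes of selenium transport and release, gave 3 genes that rose and 1 that fell of 13. These were 23.1% and 7.69%, against 14.3% and 9.79% of all tested genes. Selenop, the secreted selenium carrier, rose by 1.04 ± 0.11 (adjusted p = 6.43e-07), and Scly, which releases selenium from selenocysteine, by 0.64 ± 0.14 (adjusted p = 0.00222). Sephs2, which makes the selenium donor, fell by 0.39 (adjusted p = 0.0107), a call lost on totals without the genes called higher (adjusted p = 0.0755). Lrp8, a neuronal receptor for Selenop, had 245 ± 23.8 CPM in Control and 228 ± 39.8 CPM in IFNG (adjusted p = 0.537).

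Chac1, which cleaves glutathione in the cytosol and is a known target of the stress factor ATF4 (ENSMUSG00000027313, chromosome 2, 119351229 to 119354381, plus strand), did not pass and was, relative to its mean, the least even gene among Control libraries. It stood at 8.75 to 9.45 CPM in Control 1, Control 2 and Control 3, at 14.9 in Control 4, and at 24.98 and 29.2 CPM in Control 5 and Control 6. The IFNG libraries ran from 8.07 to 13.6 CPM, of which 2 lay below the lowest Control library and 0 above the highest. The log2 fold change was -0.64 ± 0.28 (adjusted p = 0.102), and -0.37 without Control 6. With the replicate number as a block it passed, at -0.50 (adjusted p = 0.0489), as it did with no filter, at -0.62 (adjusted p = 0.0466).

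The listed ATF4 pathway also split the Control libraries. The summed level of its 25 genes was 1432 to 1482 CPM in Control 1, Control 2 and Control 3, and 1910 to 2090 CPM in Control 4, Control 5 and Control 6, with the IFNG libraries between 1558 and 2084 CPM. Between the groups 3 of the 25 genes rose and 4 fell, against 14.3% higher and 9.79% lower among all tested genes. The share that rose was thus below that of all tested genes, and the share that fell was above it. Eif2ak2, an interferon-induced kinase that halts translation, rose by 4.02 ± 0.17. Phgdh, the first enzyme of serine synthesis, rose by 0.98 ± 0.15 and the transcription factor gene Cebpb by 1.02 ± 0.23 (adjusted p = 6.20e-05 and 0.00262). Trib3, Ppp1r15a, Stc2 and Vldlr fell, by 1.56, 0.66, 0.50 and 0.37, and these 4 were named after their values were seen. Without Control 4 the number that fell was 2, and without Control 6 it was 1. Aars1, the most abundant gene that did not pass, had 351 ± 62.8 CPM in Control and 364 ± 58.7 CPM in IFNG (SD, n = 6 each; adjusted p = 0.799).

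Aifm2, whose product suppresses ferroptosis without glutathione by reducing ubiquinone (ENSMUSG00000020085, chromosome 10, 61715263 to 61739260, plus strand), was low in Control cultures and rose. It ran from 4.92 to 6.54 CPM in Control and from 10.2 to 20.8 CPM in IFNG libraries, with medians of 5.56 and 14.2. No IFNG library fell within the Control range. The log2 fold change was 1.36 ± 0.17 (adjusted p = 2.83e-06; exact permutation p = 0.00216), and 1.24 without IFNG 5. Its exons overlap those of H2afy2 on the opposite strand over 5.65% of their bases. H2afy2 was more abundant, at 65.5 ± 6.43 CPM in Control libraries (SD, n = 6), and did not pass, with an IFNG to Control ratio of 0.853 (adjusted p = 0.0864).

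Levels between genes are comparable only per length, here as mean CPM per kilobase (1 kb) of exon. In Control libraries Slc3a2 and Gpx4 led at 73.5 ± 16.5 and 63.2 ± 5.20, a difference within the SD of Slc3a2 and beyond that of Gpx4, followed by Gclc at 26.6 ± 0.955 (SD, n = 6 each). Gpx1, Gsr and Gclm came next at 21.0 ± 3.003, 18.1 ± 2.34 and 16.3 ± 2.79, within an SD of their neighbours. Chac1 and Slc7a11 followed at 9.80 ± 5.46 and 6.43 ± 3.05, and Gss and Aifm2 were lowest at 1.96 ± 0.468 and 1.37 ± 0.144. In IFNG libraries Slc3a2, Gpx1 and Gpx4 stood together at 78.0 ± 18.3, 76.1 ± 15.2 and 72.3 ± 16.4. Gclc came next at 46.5 ± 4.91. Gclm, Gsr and Slc7a11, at 20.1 ± 2.09, 19.96 ± 2.64 and 16.7 ± 4.47, followed. Slc7a11 differed from the other two by less than its own SD and by more than theirs. Chac1 stood at 6.30 ± 1.49, and Aifm2, at 3.52 ± 0.843, was above Gss, at 1.35 ± 0.106. With the longest single transcript as the length, Gpx4 was first in both groups, at 110 ± 9.02 in Control and 125 ± 28.5 in IFNG, with Gpx1 at 28.3 ± 4.04 and 102 ± 20.4.

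**Figure D3:**
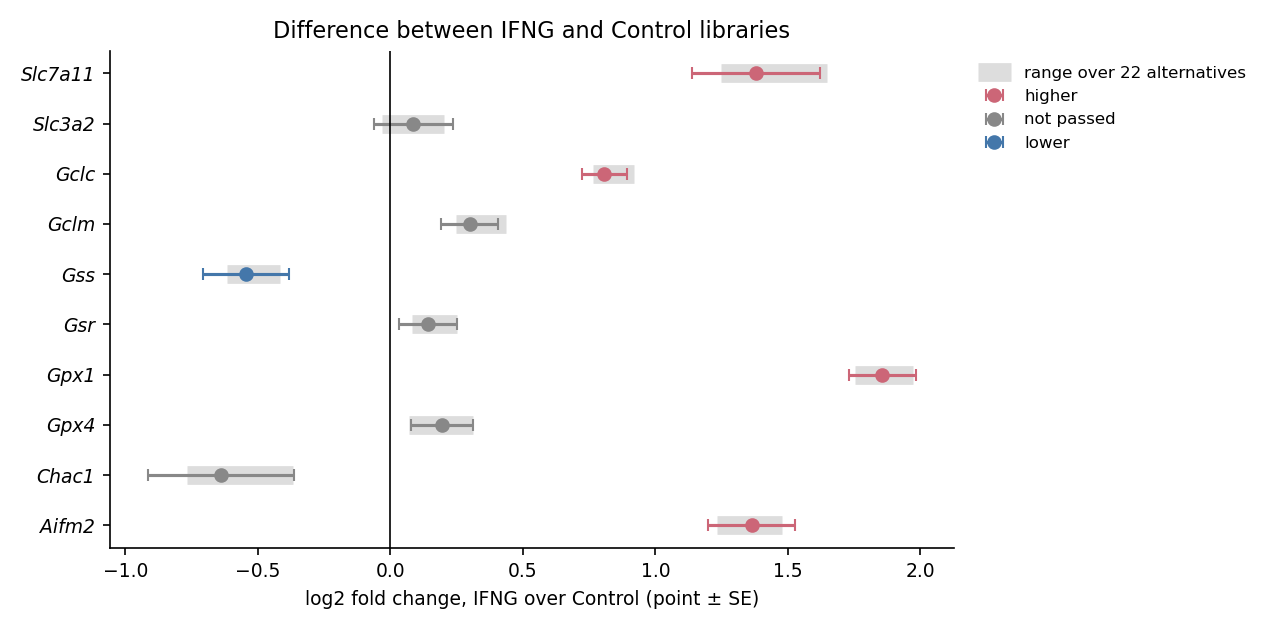
Log2 fold change of IFNG over Control for each gene, as a point with its SE, coloured by the test (red higher, blue lower, grey not passed). Grey bars span the values over 22 alternative settings. The bars of Slc7a11, Gclc, Gpx1, Aifm2, Gclm, Gsr and Gpx4 lie above 0, those of Gss and Chac1 lie below 0, and that of Slc3a2 crosses 0.

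Around the members, 13 lists of pathway genes held 195 different genes, of which 168 were tested. Of these 41 rose and 14 fell (24.4% and 8.33%, against 14.3% and 9.79% of all tested genes), and the median was 0.05 on the log2 scale. The astrocyte marker list rose in the same libraries, and a link to the pathway counts was not tested. Aldh1l1 stands both in that list and in the NADPH list below.

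Of 11 tested genes that supply cysteine 2 rose and 1 fell, 18.2% and 9.09% against 14.3% and 9.79% of all tested genes. Cbs, the entry enzyme of transsulfuration from homocysteine, rose by 1.18 ± 0.13, from 28.3 ± 2.06 to 64.3 ± 13.5 CPM (SD, n = 6 each; adjusted p = 5.01e-07). Mtap, of methionine salvage, rose by 0.48 ± 0.12 (adjusted p = 0.00387). The neutral amino acid carrier Slc1a5 fell by 0.91 (adjusted p = 0.0152), and without Control 6 it stood at -0.70 (adjusted p = 0.0635). Mat2a, which makes S-adenosylmethionine, had 352 ± 40.6 CPM in Control and 353 ± 25.1 CPM in IFNG (adjusted p = 0.993).

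Breakdown and recycling enzymes gave 3 genes that rose and 0 that fell of 8 tested (0 fell also at an unadjusted p under 0.05, in DESeq2 and in limma-voom). The shares were 37.5% and 0%, against 14.3% and 9.79% of all tested genes. Lap3, a leucine aminopeptidase, rose by 2.26 ± 0.089, from 26.6 ± 2.51 to 127 ± 7.21 CPM (adjusted p = 6.91e-14). Oplah, which returns oxoproline to glutamate in the glutathione cycle, rose by 1.31 ± 0.16 (adjusted p = 4.82e-06). Ggt5, a gamma-glutamyl transferase, rose by 2.19 ± 0.62 from a low median of 0.381 CPM (adjusted p = 0.0133). Ggt7 was the most abundant that did not pass, at 129 ± 7.05 and 140 ± 18.1 CPM (SD, n = 6 each).

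Glutathione transferases, which attach glutathione to other molecules, gave 8 genes that rose and 2 that fell of 18 tested. These were 44.4% and 11.1%, against 14.3% and 9.79% of all tested genes. Mgst1, a microsomal enzyme, rose by 1.70 ± 0.15 and Gstt1 by 2.30 ± 0.25 (adjusted p = 2.02e-08 and 7.31e-07). Ptges, which makes prostaglandin E from its precursor with glutathione as a cofactor, rose by 3.05 ± 0.23. Gstp1 had 56.4 ± 5.38 CPM in Control and 60.7 ± 15.1 CPM in IFNG (adjusted p = 0.603). The Gstm, Gsta and Gstp genes are close copies of each other, and the division of reads among them is uncertain. No glutathione transporter of 8 tested was called in edgeR or in DESeq2, against 14.3% higher and 9.79% lower among all tested genes in edgeR. In that list 2 were higher and 1 lower at an unadjusted p under 0.05, and limma-voom called 1 lower.

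**Figure D4:**
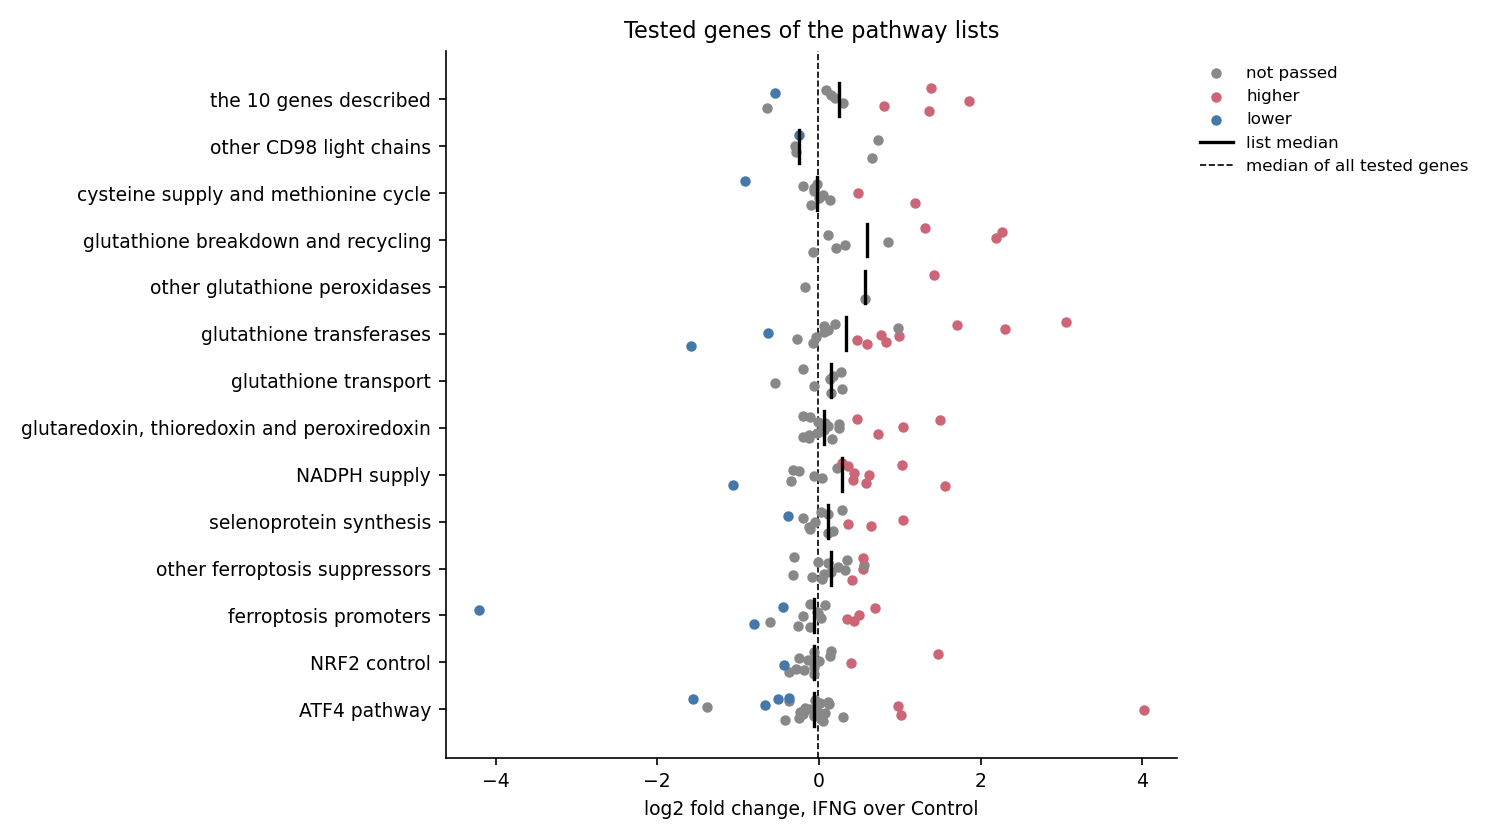
Log2 fold change of IFNG over Control for each tested gene of the 10 described and of the 13 pathway lists, coloured by the test (red higher, blue lower, grey not passed). Thick black ticks are list medians and the dashed line is the median of all tested genes, -0.02. The list of breakdown and recycling genes has the highest median, 0.59.

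The thioredoxin and peroxiredoxin system, a parallel thiol defence, had 4 genes that rose and 0 that fell of 18 (0 fell also at an unadjusted p under 0.05, in DESeq2 and in limma-voom). The shares were 22.2% and 0%, against 14.3% and 9.79% of all tested genes. Prdx6, which uses glutathione to reduce phospholipid peroxides, went from 210 ± 32.4 to 432 ± 144 CPM, and Prdx1 from 155 ± 33.5 to 257 ± 42.3 CPM (SD, n = 6 each; adjusted p = 0.000162 and 0.000232). Txnip, an inhibitor of thioredoxin, rose 2.82-fold (adjusted p = 2.79e-05). Prdx2 had 203 ± 17.96 CPM in Control and 199 ± 30.7 CPM in IFNG (adjusted p = 0.882).

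Of 15 genes that supply NADPH, the reductant Gsr draws on, 8 rose and 1 fell. These were 53.3% and 6.67%, against 14.3% and 9.79% of all tested genes. Aldh1l1, a folate enzyme and astrocyte marker, rose by 1.56 ± 0.10, the mitochondrial transhydrogenase gene Nnt by 1.03 ± 0.13 and G6pdx, of the pentose phosphate pathway, by 0.58 ± 0.096 (adjusted p = 3.63e-10, 7.69e-06 and 0.000125). The gene that fell, named after its value was seen, was the mitochondrial folate enzyme Aldh1l2, by 1.07. Me1 had 112 ± 13.8 CPM in Control and 115 ± 8.64 CPM in IFNG (adjusted p = 0.845).

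Among other suppressors of ferroptosis 3 of 15 tested genes rose and 0 fell (1 lower at an unadjusted p under 0.05, 0 in DESeq2 and in limma-voom). Among them the phospholipid remodelling gene Mboat2 rose by 0.55 ± 0.11 and Coq2, of ubiquinone synthesis, by 0.41 ± 0.093 (adjusted p = 0.000771 and 0.00274). Dhcr7 had 93.7 ± 8.91 CPM in Control and 88.0 ± 11.9 CPM in IFNG (SD, n = 6 each; adjusted p = 0.556). Among genes that promote or mark ferroptosis 4 of 16 rose and 3 fell. For both lists the background was 14.3% higher and 9.79% lower among all tested genes. Elovl5, which elongates polyunsaturated fatty acids, rose by 0.44 ± 0.090 and Sat1, of polyamine breakdown, by 0.69 ± 0.13 (adjusted p = 0.00122 and 0.000651). Acsl4, which loads polyunsaturated fatty acids into phospholipids, had 185 ± 20.8 CPM in Control and 171 ± 36.7 CPM in IFNG (adjusted p = 0.576).

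In the list of NRF2 and its regulators 2 of 14 tested genes rose and 1 fell. These shares, 14.3% and 7.14%, were not above the 14.3% and 9.79% of all tested genes. Nfe2l2, the gene of NRF2, went from 20.8 ± 2.78 to 57.7 ± 11.7 CPM, and Keap1, whose product marks NRF2 for degradation, from 46.5 ± 5.11 to 61.0 ± 7.23 CPM (SD, n = 6 each; adjusted p = 4.38e-08 and 0.00728). The kinase gene Gsk3b fell by 0.44 (adjusted p = 0.0132). On totals without the genes called higher Gsk3b did not pass (adjusted p = 0.0514). Sqstm1, which binds Keap1, had 388 ± 50.4 CPM in Control and 428 ± 26.9 CPM in IFNG (adjusted p = 0.280).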

How the data were processed

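The authors deposited raw counts per Ensembl gene, 1 column for each of 12 libraries. STAR 2.4, DESeq2 and the builds GRCm39 and mm10 are named, per the submitters' processing notes, without their roles. Which program counted reads, with which strand setting and annotation, is not given in the sources used here. Symbols, coordinates and exon lengths came from GENCODE M21 (GRCm38), which matched 42548 identifiers. The comparison used edgeR 4.0.16 under R 4.3.3: TMM factors, filterByExpr, quasi-likelihood F-tests and Benjamini-Hochberg adjustment over 15241 genes at 0.05, two-sided. CPM use TMM-scaled totals, and SE is the absolute log2 fold change over the square root of F. Permutation tests used log2 CPM with a prior count of 2. No pair of libraries in a group agreed within sampling noise (chi-square per gene at least 7.40).

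The members and the gene lists were chosen with earlier results of these data known. Named genes are the members, up to 3 genes with the smallest p past the threshold and the most abundant gene that did not pass in each pathway list, and Ifng and Irf1; exceptions are stated, and some genes the rule names are not reported here. The lists of oligodendrocyte, endothelial, fibroblast and mural, and dividing cell markers are given in the closing section. The 22 alternatives covered scaling, filter, replicate block, DESeq2 1.42.0, limma-voom (limma 3.58.1), a fold change of 1.2 and left-out libraries.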

Additional observations from a re-analysis of the deposited data

Results flagged for a closer look

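IFNG 5, which also stood apart over all genes, was far from the other IFNG libraries in both glutathione peroxidases. Its Gpx1 level was 152 CPM, with the next library at 110 CPM, and its Gpx4 level was 181 CPM, with the next at 122 CPM. The gap took 0.656 and 0.791 of the range of the group, above Dixon's critical value for 6 libraries. Of 20 groups examined (10 genes in 2 groups) 2 were above it, and chance alone gives about 1 in 20. Without IFNG 5 the log2 fold change of Gpx1 was 1.75 (adjusted p = 2.33e-11) and that of Gpx4 was 0.07 (adjusted p = 0.592). IFNG 5 was also the highest library for Slc3a2 and Aifm2.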

How the results depend on the processing

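Over 22 alternatives Gpx1, Slc7a11, Gclc and Aifm2 kept their call, with log2 fold changes of 1.75 to 1.97, 1.25 to 1.65, 0.76 to 0.92 and 1.23 to 1.48. Gss kept its direction and lost its call in 3 (on totals without the genes called higher, against a fold change of 1.2, and without Control 6), and Gclm passed in 9. The number of the 10 genes that fell was 0 on totals without the genes called higher and against a fold change of 1.2, 2 with no filter and 2 with the replicate block, and 0 to 1 with each library left out. Over all tested genes the number that fell was 750 on totals without the genes called higher and 458 against a fold change of 1.2. Of the pathway genes 27 rose and 7 fell against a fold change of 1.2, 8 fell on totals without the genes called higher, and 9 to 17 fell with each library left out, the fewest without Control 6. The replicate numbers were not shown to pair the libraries: deviations of same-numbered libraries correlated at -0.00096 to 0.124, and 2 of 6 IFNG libraries correlated best with their own number. The block gave 4 of the 10 genes higher and 2 lower, and 2114 higher and 1563 lower over all genes. Gss and Aifm2 rest on the fewest counts, from 96 and 76 a library.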

Other observations

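The largest fall in the lists around glutathione was in Ptgs2, the inducible cyclooxygenase that is also used as a marker of ferroptosis. It ran from 3.41 to 21.5 CPM in Control and from 0.258 to 1.43 CPM in IFNG libraries, with no overlap (log2 fold change -4.20 ± 0.45, adjusted p = 4.95e-07). Ptges, the synthase downstream of it, moved the other way, from 0.565 to 2.17 CPM in Control to 11.98 to 16.9 CPM in IFNG libraries.

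Markers of other cell types had lower summed levels than those of astrocytes and neurons. Their calls stand against 14.3% higher and 9.79% lower among all tested genes, and no list was tested against these shares. Of 10 tested oligodendrocyte lineage markers 1 rose and 2 fell, with sums of 300 to 402 CPM in Control and 319 to 362 CPM in IFNG libraries. Of 8 tested fibroblast and mural markers 4 rose, with sums of 99.2 to 123 and 135 to 184 CPM. Of 2 tested endothelial markers 1 rose, with sums of 1.65 to 4.13 and 3.03 to 7.27 CPM. It was Ly6c1, at 0.00807 ± 0.0198 CPM in Control and 2.44 ± 0.759 in IFNG (SD, n = 6 each). Pecam1, the other, did not pass (log2 fold change -0.43 ± 0.46, adjusted p = 0.547). Of 12 dividing cell markers 2 fell, with sums of 147 to 252 and 144 to 184 CPM. Of 5 tested microglia and macrophage markers 2 rose, with sums of 34.16 to 42.4 and 45.6 to 60.4 CPM.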
